A study of Bos taurus with 6 samples.

Results

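The miR-10, miR-99/100 and miR-125 families were followed in intramuscular fat (IMF) of Qinchuan cattle, a Chinese breed, by small RNA sequencing of castrated and intact males. The 8 members are the rows named bta-miR-10a, bta-miR-10b, bta-miR-99a-5p, bta-miR-99a-3p, bta-miR-99b, bta-miR-100, bta-miR-125a and bta-miR-125b. They were chosen by name from a count table of 8800 rows, of which 793 are known bovine miRNAs. All males were weaned at 3 months and slaughtered at 24 months, and their IMF was taken from the sternomandibularis, a neck muscle. The steers had been castrated by surgery at 6 months, and the bulls were left intact. Each group had 2 small RNA libraries and 1 mRNA library. Each small RNA library held RNA pooled from 3 animals and each mRNA library from 6 animals by the study's own account, while the sample labels give 1 and 3. With pooled libraries, the spread between libraries is not the spread between animals. By the study's account RNA came from 6 animals per group, and the labels do not tie a library to its animals.

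These families are old, and their mature sequences resemble each other. The miR-10 genes lie inside Hox gene clusters, which set position along the body axis. The miR-99/100 and miR-125 genes lie beside let-7 genes, and each such cluster is made as a shared primary transcript. A miRNA binds messages mainly through its seed, the bases 2 to 8 from the 5′ end, and lowers their stability or translation. MiR-99 and miR-100 are known for acting on the mTOR and IGF1 receptor genes. MiR-125 is known for acting on Lin28, on apoptosis genes and on the fatty acid elongase gene ELOVL6. In adipose tissue, miR-125b and miR-99a have been studied as regulators of fat cell formation.

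The mature sequences show why the 8 miRNAs fall into 4 seed groups. They are given in DNA letters, 5′ to 3′, as the study's list of known bovine miRNAs has them, with the seed in capitals.
miR-10b: tACCCTGTagaaccgaatttgtg
miR-10a: tACCCTGTagatccgaatttgtg
miR-100: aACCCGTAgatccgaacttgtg
miR-99a-5p: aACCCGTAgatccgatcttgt
miR-99b: cACCCGTAgaaccgaccttgcg
miR-125b: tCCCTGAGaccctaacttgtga
miR-125a: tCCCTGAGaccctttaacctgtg
miR-99a-3p: cAAGCTCGcttctatgggt

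Counted from the 5′ end, miR-10b and miR-10a differ by A12T alone, outside the seed. MiR-100 and miR-99a-5p differ by A16T and by 1 base of length. MiR-99b differs from miR-100 by A1C, T11A, A16C and T21C. MiR-125b and miR-125a share their first 13 bases. Across families, miR-10a and miR-100 share the 11 bases gtagatccgaa, which begin at base 7 of miR-10a and base 6 of miR-100. This run takes in the last bases of each seed and lines up only when the sequences are shifted against each other. The seeds as wholes differ. The miR-10 seed and the miR-99/100 seed were not carried by any other sequence of that list, and the miR-125 seed was also carried by bta-miR-670. How reads that match several sequences were shared out is not stated in the sources used here, so the values of the pairs that differ by 1 base are uncertain to that extent.

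The precursor genes sit in few places, by the order of genes in a RefSeq table of the assembly ARS-UCD2.0. MIR10B lies within the span of HOXD4 and next to HOXD8, and MIR10A lies within the span of HOXB3 and next to HOXB4. MIR99A follows MIRLET7C and MIR125B-2. MIR100 follows MIRLET7A-2 and MIR125B-1. MIR99B, MIRLET7E and MIR125A are neighbours. The mature miR-125b comes from 2 precursors, so its count cannot be assigned to either cluster.

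The small RNA libraries summed to 10452582 and 8859844 for steers, and to 7784227 and 6556511 for bulls, in counts. Known bovine miRNAs took 92.8% and 89.7% of them in steers and 93.2% and 86.2% in bulls. Levels below are CPM, counts scaled to a common library size, here with TMM factors (trimmed mean of M values), and fold changes are steers over bulls. The TMM factor was 0.746 in steers library 1 and 1.42 in bulls library 2, while it was 0.968 in steers library 2 and 0.972 in bulls library 1. These outer libraries stand apart and lie in different groups, so the scaling enters each fold change. In each group the level of all 8 members was higher in library 1, the library with the lower factor. Counting error was small beside this, since the widest 95% Clopper-Pearson interval of a member's share of counts, for miR-99a-3p, reached 6.58% of the share to either side. Such intervals cover counting error only, because reads are not independent molecules.

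MiR-10b was higher in steers. It is the Hox D member of its family, and it was the first or second most abundant known bovine miRNA in each library. Its counts were 2183186 and 1833794 in steers and 916998 and 673224 in bulls. These were 20.9% and 20.7% of all counts in steers and 11.8% and 10.3% in bulls. Its level was 280152 and 214131 in steers and 121296 and 72175 in bulls. Both steers libraries lay above both bulls libraries. The mean was 247142 ± 46684 (SD, n = 2) in steers and 96736 ± 34734 (n = 2) in bulls. The log2 fold change was 1.35 with a standard error (SE) of 0.40, which is 2.55-fold (adjusted p = 0.0123, edgeR's quasi-likelihood test). MiR-10b was the only one of the 8 members called upregulated, which takes an adjusted p under 0.05 together with a log2 fold change over 1 in size. Of all 1073 sequences tested, 7.08% were called upregulated. The call was lost with scaling to total counts, where the log2 fold change was 0.92 (adjusted p = 0.0693, edgeR), without a filter on low counts, where it was 1.26 (SE 0.77, adjusted p = 0.841), and without steers library 1, steers library 2 or bulls library 2, where it was 1.19, 1.56 and 0.99.

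MiR-10a is the Hox B member of the same family. Its level was 24612 and 16809 in steers and 19867 and 12075 in bulls. The groups overlapped. Its log2 fold change was 0.37 with an SE of 0.44 and an adjusted p of 0.604 in edgeR, so it was not called. With total counts the log2 fold change was -0.076, and without 1 library it ran from 0.03 to 0.97. Its share of all counts was 1.83% and 1.62% in the steers libraries against 1.93% and 1.72% in the bulls libraries.

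Neither miR-125 member passed the threshold. The counts of miR-125b were 48052 and 37141 in the steers libraries, and 94656 and 72442 in the bulls libraries. Its level was 6166 and 4337 in steers and 12521 and 7766 in bulls, and the groups did not overlap. The log2 fold change was -0.95 with an SE of 0.46, and the adjusted p was 0.155 in edgeR (0.0397 before adjustment). The adjusted p was 0.0275 with known bovine miRNAs alone (log2 fold change -0.80) and 0.0279 with the replicate number as a block (-0.93), both short of the fold threshold. MiR-125a, from the cluster with miR-99b and let-7e, had a level of 4403 and 3420 in steers and 8713 and 4138 in bulls. Bulls library 2 lay among the steers libraries for miR-125a. Its log2 fold change was -0.72 with an SE of 0.47 and an adjusted p of 0.308 in edgeR.

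No member was called downregulated in edgeR, DESeq2 or limma-voom, where 7.08% of all sequences tested were called downregulated in edgeR. At an unadjusted p under 0.05 edgeR gave 1 lower member, miR-125b, while 293 of the 1073 sequences tested passed that mark in either direction. Without bulls library 2, both miR-125b (log2 fold change -1.29, adjusted p = 0.0204) and miR-125a (-1.19, adjusted p = 0.0455) were called downregulated in edgeR, as were 45 of all 1209 sequences tested in that fit. Without bulls library 1 the log2 fold changes were -0.37 for miR-125b (adjusted p = 0.650), 0.11 for miR-125a and -0.15 for miR-100 in edgeR.

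The 3 miR-99/100 guide strands, which share a seed, were less abundant than miR-125b. MiR-100 had a level of 1923 and 1273 in steers and 3422 and 2030 in bulls. The groups did not overlap, and the log2 fold change was -0.77 with an SE of 0.48 and an adjusted p of 0.287 in edgeR. MiR-99b had a level of 2548 and 1473 in steers and 3111 and 1589 in bulls. Its groups overlapped, with a log2 fold change of -0.22, an SE of 0.48 and an adjusted p of 0.787 in edgeR. MiR-99a-5p had a level of 2098 and 1499 in steers and 2038 and 1203 in bulls. Its groups overlapped too, with a log2 fold change of 0.15, an SE of 0.48 and an adjusted p of 0.872 in edgeR, and its sign turned with total counts (-0.29).

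The other arm of the same hairpin, miR-99a-3p, was the least abundant member and has a seed of its own. Its counts were 1789 and 1386 in the steers libraries, and 1104 and 902 in the bulls libraries. Its level was 230 and 162 in steers and 146 and 96.7 in bulls, so the groups did not overlap. The log2 fold change was 0.69 with an SE of 0.48 and an adjusted p of 0.339 in edgeR. With known bovine miRNAs alone it was 0.83, with an adjusted p of 0.0277 in edgeR. With total counts the log2 fold change was 0.23, and without 1 library it ran from 0.39 to 1.21.

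**Figure D1:**
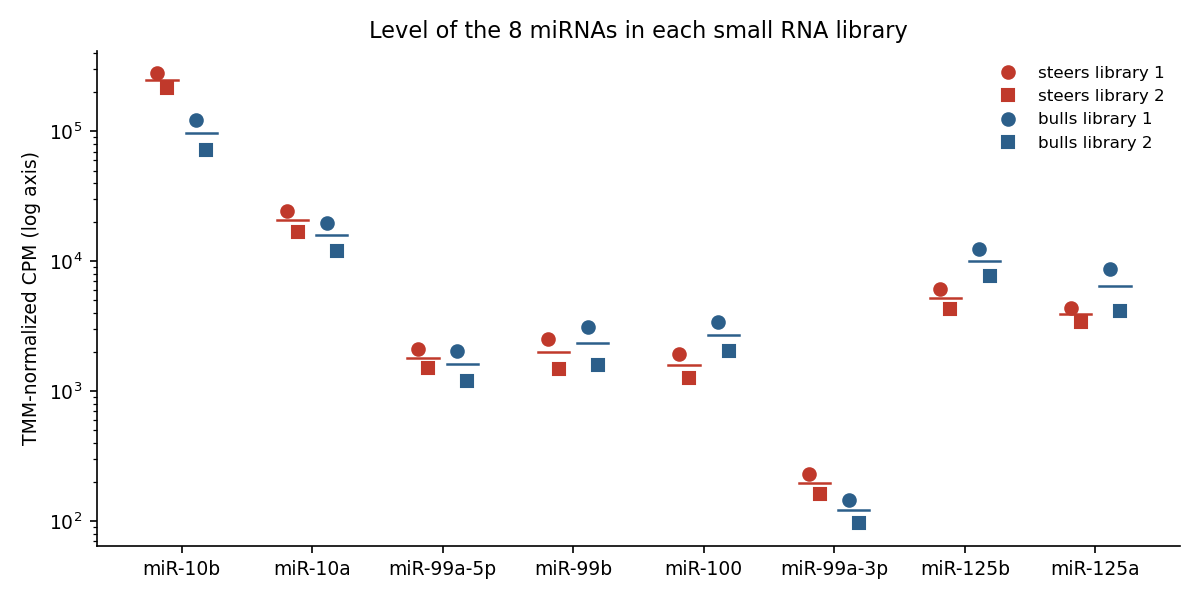
The vertical axis gives the TMM-normalized CPM on a log scale for each of the 8 miRNAs, with 1 point per library and a line at the group mean (n = 2 libraries per group). Both steers points for miR-10b, at 280152 and 214131, lie above both bulls points, at 121296 and 72175, while those for miR-125b, at 6166 and 4337, lie below.

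Over the 8 members the groups did not overlap for 4, which were miR-10b, miR-125b, miR-100 and miR-99a-3p. Of all sequences tested, 58.2% had groups that did not overlap, so the members' count lies near the background. The median log2 fold change was -0.04 over the members, 4 of which lay above 0, against -0.07 over all sequences tested. All 8 passed the filter on low counts. In the order of the bulls' mean levels, miR-10b stood first, followed by miR-10a, miR-125b, miR-125a, miR-100, miR-99b, miR-99a-5p and miR-99a-3p. In steers the order was alike down to miR-125a and then ran miR-99b, miR-99a-5p, miR-100 and miR-99a-3p. The ranges of miR-125b and miR-125a overlapped within both groups, as did those of miR-100, miR-99b and miR-99a-5p. Those of miR-10a and miR-125b overlapped in bulls. Within each library, however, miR-10a lay above miR-125b and miR-125b above miR-125a. In both bulls libraries miR-100 lay above miR-99b and miR-99b above miR-99a-5p. In steers, miR-99b lay above miR-99a-5p in library 1 and below it in library 2. The levels are not divided by length, since the mature sequences run only from 19 to 23 bases.

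Of all counts, the 8 members together took 24.0% and 23.5% in the steers libraries against 16.6% and 14.4% in the bulls libraries. The miR-10 family made up most of that, with 22.7% and 22.3% in steers and 13.7% and 12.0% in bulls. By share of counts, the other families ran the other way. The miR-125 family took 0.788% and 0.750% in the steers libraries against 2.06% and 1.69% in the bulls libraries. The miR-99/100 guide strands took 0.490% and 0.410% in steers and 0.832% and 0.686% in bulls. Because a share must fall where another rises, these shares are not independent of miR-10b. With TMM factors the summed levels of the miR-99/100 guide strands overlapped, at 6569 and 4245 in steers and 8570 and 4821 in bulls. Those of the miR-125 family did not, at 10569 and 7757 in steers and 21234 and 11904 in bulls. In bulk tissue, fewer cells of a type and less RNA per cell cannot be told apart.

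The make-up of each seed family does not depend on how the libraries were scaled. MiR-10b was 91.9% and 92.7% of the miR-10 seed in steers and 85.9% and 85.7% in bulls, means of 92.3% ± 0.564 and 85.8% ± 0.183 (SD, n = 2 each). MiR-100 was 29.3% and 30.0% of the miR-99/100 seed in steers and 39.9% and 42.1% in bulls. MiR-99a-5p went the other way, at 31.9% and 35.3% in steers and 23.8% and 24.9% in bulls. MiR-99b was 38.8% and 34.7% in steers and 36.3% and 33.0% in bulls, where the groups overlapped. MiR-125b was 58.3% and 55.9% of the pair miR-125a and miR-125b in steers and 59.0% and 65.2% in bulls, with steers library 1 and bulls library 1 close together.

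**Figure D2:**
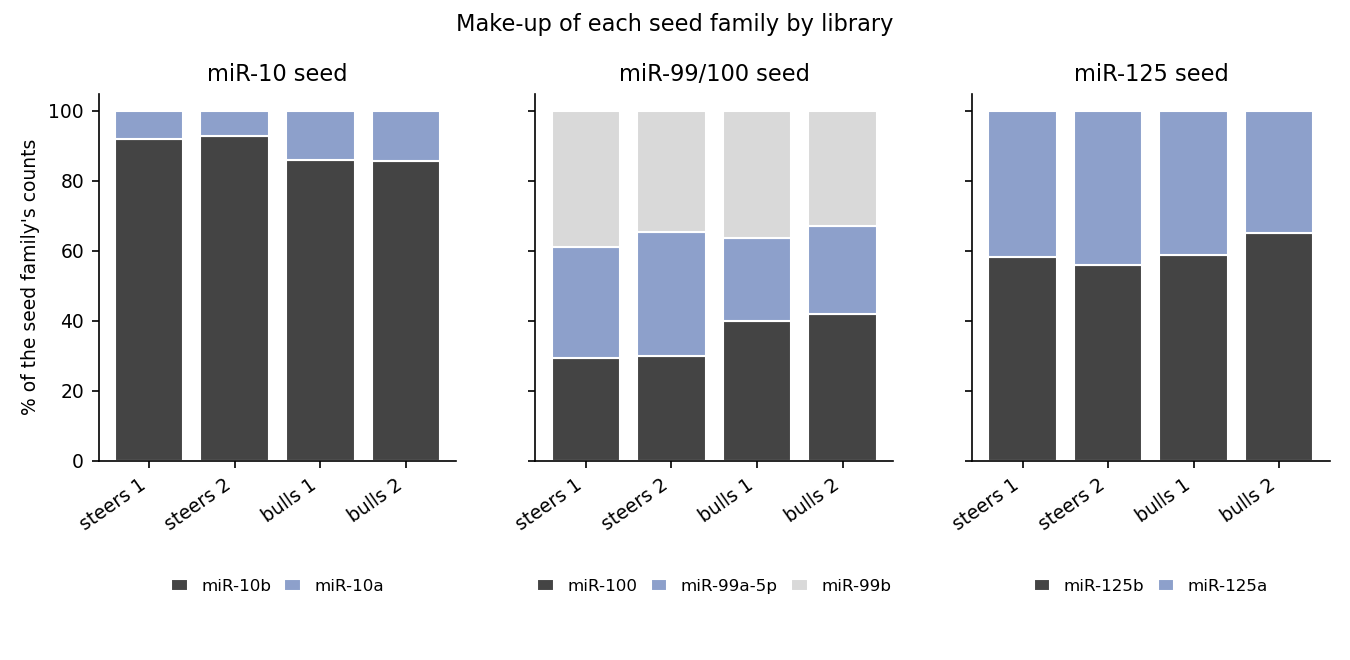
Each bar is a library and splits the counts of a seed family among its members in percent, so every bar ends at 100%. MiR-10b fills 91.9% and 92.7% of its family in steers against 85.9% and 85.7% in bulls, and miR-100 fills 29.3% and 30.0% against 39.9% and 42.1%.

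Count ratios between members of the same library compare them without any scaling. There were 11.4 and 12.7 counts of miR-10b for each count of miR-10a in steers, and 6.11 and 5.98 in bulls. That is a log2 difference of 1.00, or 1.99-fold, against SDs of 0.11 in steers and 0.02 in bulls. The hairpin arms of miR-99a shifted by less. The 5p arm outnumbered the 3p arm 9.14 and 9.26 to 1 in steers and 14.0 and 12.4 to 1 in bulls, a 1.43-fold difference between the groups.

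The ratio of miR-10b to miR-125b sets the member with the highest log2 fold change against that with the lowest. It was 45.4 and 49.4 in steers and 9.69 and 9.29 in bulls, which is 4.99-fold, or 2.32 on the log2 scale with SDs of 0.08 and 0.04. MiR-125b to miR-100 was 3.21 and 3.41 in steers and 3.66 and 3.83 in bulls, a 1.13-fold difference. MiR-125a to miR-99b was 1.73 and 2.32 in steers and 2.80 and 2.60 in bulls, a 1.35-fold difference.

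None of the 5 ratios overlapped between the groups. Each gave p = 0.333 in an exact permutation test (two-sided, n = 2 per group), which is the smallest p that 2 against 2 libraries can give, and adjusted over the 5 it stays 0.333. The pair miR-10b and miR-125b was chosen with earlier values known, so its separation is a description. Of the 78210 pairs of known bovine miRNAs tested, 65.6% had ratios that did not overlap, so separation alone is common in these libraries.

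**Figure D3:**
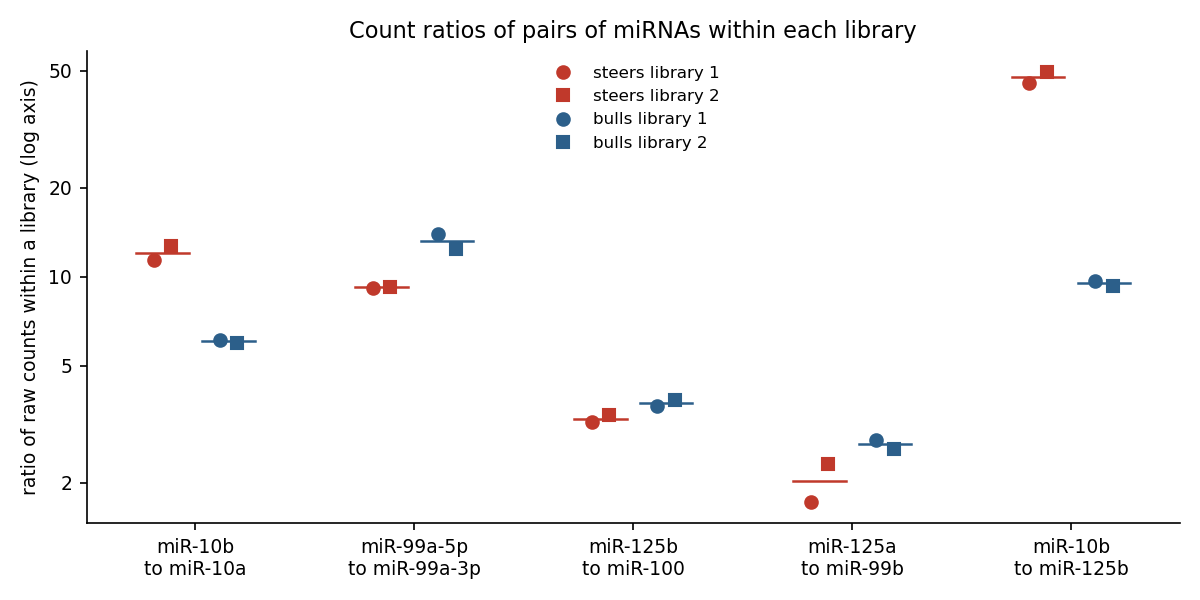
The vertical axis, on a log scale, gives the ratio of raw counts of 2 miRNAs within a library, with 1 point per library and a line at the group mean. The steers libraries lie as far apart for miR-125a to miR-99b, at 1.73 and 2.32, as the groups do, and miR-10b to miR-125b lies at 45.4 and 49.4 in steers against 9.69 and 9.29 in bulls.

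Of the 3 let-7 miRNAs whose genes share clusters with the miR-99/100 and miR-125 genes, 0 were called in either direction in edgeR, DESeq2 or limma-voom. At an unadjusted p under 0.05 there were 0 in edgeR and limma-voom and 1 in DESeq2, where edgeR gave 293 of all 1073 sequences. Let-7a-5p, which also comes from other loci, had a level of 25244 and 22291 in steers and 19289 and 15910 in bulls (log2 fold change 0.43, SE 0.44). Let-7c, the neighbour of miR-99a, had 8052 and 7750 in steers and 5270 and 4800 in bulls (0.65, SE 0.46). Let-7e, between miR-99b and miR-125a, had 1897 and 2097 in steers and 1594 and 1314 in bulls (0.46, SE 0.48). The adjusted p-values were 0.541, 0.356 and 0.560 in edgeR, and the groups did not overlap in these levels for any of the 3, as for 58.2% of all sequences. As shares of all counts, without TMM factors, the groups overlapped for all 3: let-7a-5p took 1.88% and 2.15% in steers against 1.87% and 2.26% in bulls, let-7c 0.600% and 0.749% against 0.512% and 0.683%, and let-7e 0.141% and 0.203% against 0.155% and 0.187%. The ratio of let-7e to miR-125a, chosen after the values were seen, was 0.431 and 0.613 in steers and 0.183 and 0.317 in bulls, a 2.13-fold difference. The ratios of let-7e to miR-99b (1.58-fold) and of let-7c to miR-99a-5p (1.39-fold) overlapped between the groups.

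Other miRNAs of the Hox clusters were far less abundant than miR-10b. MiR-196b had a level of 203 and 204 in steers and 179 and 171 in bulls (log2 fold change 0.22, SE 0.48). It was not called (adjusted p = 0.796, edgeR). MiR-196a ran lower in steers, at 6.29 and 4.20 against 11.5 and 8.04 (log2 fold change -0.90, adjusted p = 0.253, edgeR). MiR-615 had 3.85 and 4.55 in steers and 1.72 and 4.07 in bulls. None of the 3 was called in edgeR, DESeq2 or limma-voom, where edgeR called 7.08% of all sequences in each direction. At an unadjusted p under 0.05 edgeR gave 0 of the 3, against 293 of all 1073 sequences.

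The log2 fold changes of the members were also computed under other scalings, filters and tools. Under total counts the median over all sequences was -0.56 in place of -0.07 (0.11 with upper-quartile factors), so that each member's value dropped by a like amount. Relative to that median, the miR-10b value of 0.92 lay 1.48 above it, against 1.42 with TMM factors. MiR-10b ranged from 0.92 to 1.53 over 8 such settings, and miR-125b from -1.40 to -0.77.

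**Figure D4:**
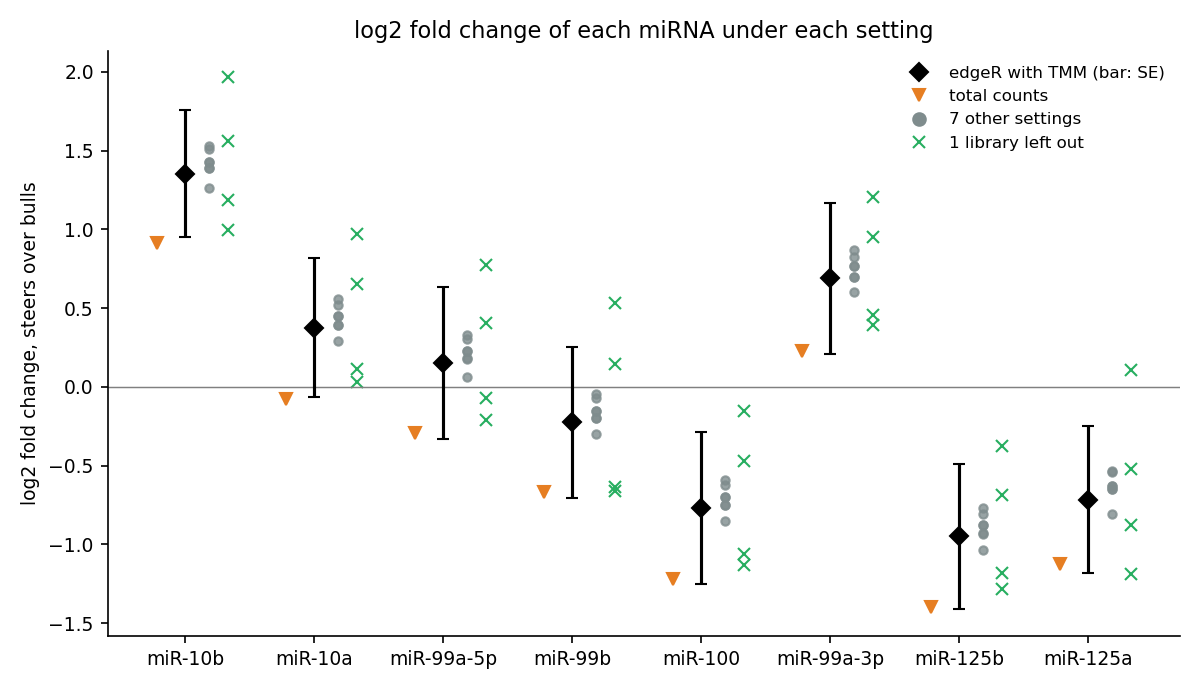
The vertical axis gives the log2 fold change, steers over bulls, of each miRNA: a diamond for edgeR with TMM factors with a bar of 1 SE, a triangle for total counts, dots for 7 other settings and crosses for fits without 1 library. MiR-10b and miR-99a-3p lie above 0 and miR-100 and miR-125b lie below 0 at every mark. MiR-10a, miR-99a-5p, miR-99b and miR-125a have marks on both sides.

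Among 121 known bovine miRNAs with a mean level of at least 100, the pattern nearest to miR-10b over the 4 libraries was that of miR-192. Nearness is the Euclidean distance between log2 levels centred on their mean, and it was 0.168 for miR-192, followed by 0.372 for miR-151-3p, 0.405 for miR-181c, 0.450 for miR-660 and 0.498 for miR-2284x. MiR-192 had a level of 3748 and 2940 in steers and 1620 and 853 in bulls (log2 fold change 1.44, adjusted p = 0.0310, edgeR). Nearest to miR-125b were miR-29a at 0.0918, miR-151-5p at 0.132, miR-30f at 0.192, miR-100 at 0.195 and miR-339a at 0.195. MiR-100 is the only member of the families among these 10. The arms of the miR-151 hairpin appear on both sides, with miR-151-3p at a log2 fold change of 1.25 (adjusted p = 0.0521, edgeR) and miR-151-5p at -0.94 (adjusted p = 0.173). Over 4 libraries this is a description only.

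Some miRNAs that mark other cell types were called between the same libraries, where 7.08% of all sequences were called in each direction. Of 8 muscle miRNAs, 7 were tested and 2 were called downregulated in edgeR, miR-1 and miR-499. The log2 fold change was below 0 for all 7, where the median over all sequences was -0.07. For miR-206 the groups overlapped. The summed level of the muscle miRNAs, mostly miR-133a, was 2211 and 3383 in steers and 5853 and 5403 in bulls. MiR-208a had no count in steers. Of 7 immune miRNAs 2 were called downregulated, miR-142-5p and miR-223, and the sum, led by miR-142-5p, was 1510 and 1243 in steers and 3833 and 1893 in bulls. Of 2 endothelial miRNAs miR-126-3p was called downregulated, and the sum, mostly miR-126-5p, was 14793 and 7863 in steers and 21298 and 11456 in bulls. Of 3 erythroid miRNAs, miR-486 was called upregulated and miR-451 downregulated, with sums of 3401 and 7360 in steers and 2248 and 1757 in bulls. The median log2 fold change was -1.01 over the muscle, -0.71 over the immune, -0.89 over the endothelial and -1.79 over the erythroid miRNAs tested.

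MiR-143, a miRNA of smooth muscle and stromal cells, held the first or second rank among known bovine miRNAs in each library, together with miR-10b. Its level was 334203 and 135880 in steers and 144533 and 63300 in bulls. These groups overlapped, and the log2 fold change was 1.18 (adjusted p = 0.0321, edgeR). It was the only one of 5 stromal miRNAs called, and their median log2 fold change was -0.23. The part of these cell types in the values of miR-10b and miR-125b was not tested.

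The mRNA libraries, with 12677375 counts in steers and 9868415 in bulls, show the same tissue in pools. Adipocyte genes were present in both, with 40698 and 39053 counts over 9 measured genes. CIDEC, a lipid droplet protein, had the most over both pools. LPL and CIDEA were past 2-fold higher in steers and FABP4 past 2-fold lower. PLIN1, which coats lipid droplets, had 4499 and 5386 counts, and ADIPOQ, the hormone adiponectin, had 4513 and 6651. Genes were set past 2-fold after median-of-ratios scaling, and no test was possible with 1 library per group. Of the 17752 genes with a count, 12.8% were past 2-fold higher in steers and 15.5% past 2-fold lower.

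Cell type genes differed between these pools. Of 10 T lymphocyte genes, 9 were past 2-fold lower in steers, with 182 and 1051 counts in all in the steers and bulls pools. CD3E had the most counts over both pools, and CD3G was at 0 in steers. CD247, with 53 and 67 counts, was the gene not past 2-fold. Of 10 myeloid genes 8 were past 2-fold lower, with 33010 and 84233 counts, led by CD74. Of 10 muscle genes 3 (MYH7, TNNT1 and DES) were past 2-fold lower and 1 (MYH1) higher, with 33714 and 51302 counts, led by ACTA1. Of 10 fibroblast and matrix genes 4 (COL3A1, COL1A1, COL6A1 and SPARC) were past 2-fold higher, with 1733605 and 821450 counts, led over both pools by COL3A1. None of 10 endothelial genes was past 2-fold.

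The host gene of miR-10b, HOXD4, was read 25 times in the steers pool and 46 times in the bulls pool (log2 fold change -1.002, with a 95% interval from -1.77 to -0.27). Its neighbour HOXD8 had 155 and 169 counts (-0.25, from -0.57 to 0.08). HOXD9 had 170 and 87 counts (0.84, from 0.46 to 1.23). HOXD3 had 5 and 19 counts (-2.05, from -3.83 to -0.58). HOXB4, beside miR-10a, had 245 and 289 counts (-0.36, from -0.61 to -0.11), HOXB3 had 103 and 134, and HOXB2 had 118 and 69 (0.65, from 0.21 to 1.10). These intervals cover counting error only, not the choice of scaling. The median-of-ratios size factors, 1.04 in steers and 0.959 in bulls, differ by less than the total counts of the pools do. Scaling to total counts would therefore lower every log2 fold change of the mRNA by the same amount. Summed counts in the steers and bulls pools were 363 and 333 over the HOXD genes (log2 ratio of the scaled sums 0.0023) and 598 and 630 over the HOXB genes (-0.20). The median log2 fold change was -0.98 over 8 HOXD genes, most of them with few counts, and -0.26 over 6 HOXB genes with a count, against 0.01 over all genes. With the prior of 0.5 counts and median-of-ratios scaling, HOXD4 lay just short of 2-fold. The HOXD genes past 2-fold lower were then HOXD3, HOXD12 and HOXD13, 3 of 8, against 15.5% of all genes with a count. HOXD10, HOXD12 and HOXD13 had 4 counts or fewer in each pool. HOXD4 thus had fewer counts in the steers pool, whereas miR-10b was higher in the steers libraries, which were made separately.

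Genes known from studies of other cells as targets of the families were then read in the same pools. Of 33 such genes 32 were in the table and 30 had a count. Of these, 2 were past 2-fold higher and 6 past 2-fold lower in steers, against 12.8% and 15.5% of all genes. Their median log2 fold change was -0.12.

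For miR-10, 7 targets were listed, and of those with 10 or more counts in a pool none was past 2-fold. BCL6, a transcriptional repressor, was read 725 times in the steers pool and 688 times in the bulls pool. Its log2 fold change was -0.05 (-0.20 to 0.11). HOXA3 had 58 counts in each pool. TFAP2C had 0 and 4 counts. HOXD10 had 2 and 4 counts (-1.12, from -4.59 to 1.68), which the prior of 0.5 counts brings within 2-fold.

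For miR-99/100, MTOR, the growth kinase, had 905 and 703 counts (log2 fold change 0.24, from 0.10 to 0.39). Scaling to total counts would lower this value, so its distance from 0 depends on the scaling. IGF1R, the receptor for IGF1, had 461 and 401 counts (0.08, from -0.12 to 0.28). SMARCA5 and BAZ2A, chromatin remodelling genes, had 709 and 662 counts and 705 and 838 counts. PLK1, a mitotic kinase, had 86 and 159 counts (-1.01, from -1.40 to -0.62). FGFR3 had 11 and 4 counts, too few to give its direction (1.34, from -0.42 to 3.44).

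The miR-125 list held the widest differences. ELOVL6, which lengthens fatty acids, was read 1368 times in the steers pool and 322 times in the bulls pool (log2 fold change 1.96, from 1.79 to 2.14). IRF4, a lymphocyte transcription factor, had 10 and 149 counts (-4.02, from -5.11 to -3.10). TNFAIP3, an inhibitor of NF-kB signaling, had 120 and 330 counts (-1.58, from -1.90 to -1.28). BMPR1B, a BMP receptor, had 41 and 121 counts (-1.68, from -2.23 to -1.16). BMF, an apoptosis gene, had 23 and 54 counts (-1.35, from -2.13 to -0.62).

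STAT3, a cytokine signaling factor and the most abundant miR-125 target listed, had 1971 and 1747 counts (log2 fold change 0.05, from -0.04 to 0.15). KLF13, a transcription factor active in fat cell formation, had 136 and 107 counts (0.22, from -0.15 to 0.60). LIN28A and LIN28B had no count in either pool. Of the 15 targets with a count, 1 was past 2-fold higher and 4 lower, against 12.8% and 15.5% of all genes, and the median log2 fold change was -0.14. IRF4 and TNFAIP3 are also expressed in lymphocytes, whose marker genes were lower in the steers pool, and the part of these cells in their values was not tested.

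**Figure D5:**
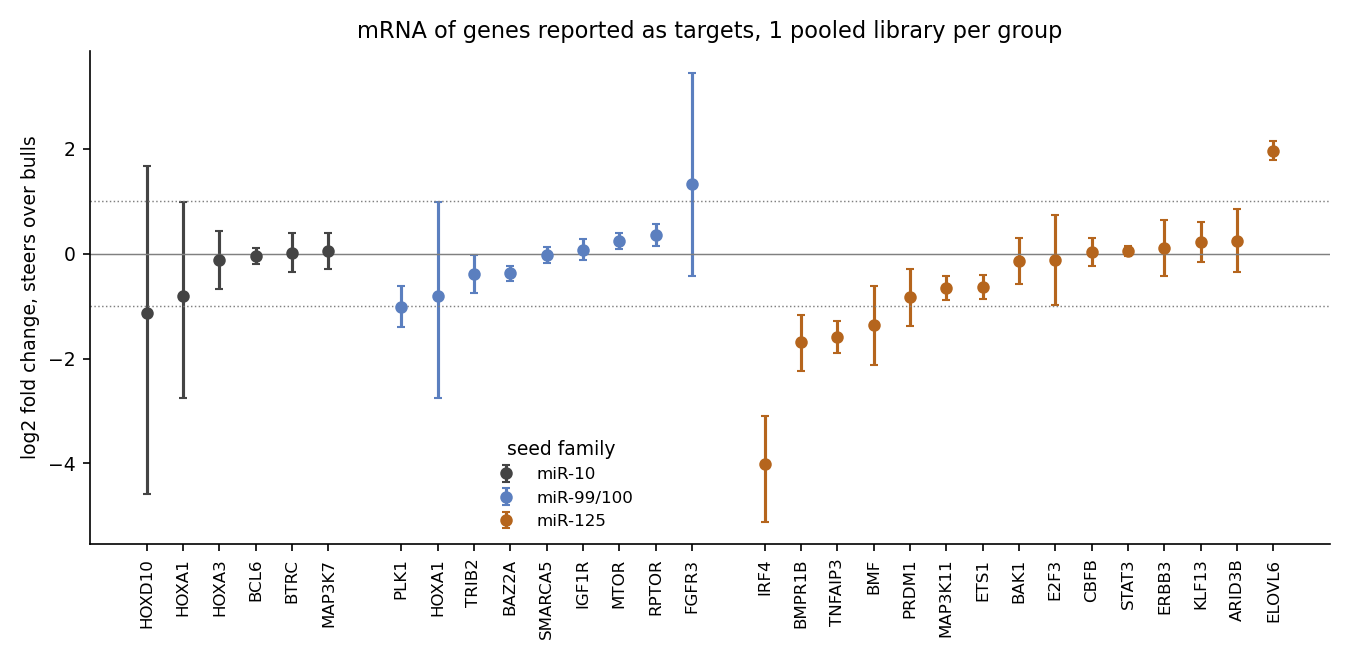
The vertical axis gives the log2 fold change of mRNA, steers over bulls, for each listed target with a count in both pools, grouped by seed family, with bars for the 95% counting interval and dotted lines at 2-fold. ELOVL6 at 1.96 and IRF4 at -4.02 stand farthest from 0, and most of the genes lie between the dotted lines.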

How the data were processed

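The deposited values are raw counts per sequence or gene, which the authors made without normalization. Small RNA reads were trimmed and aligned to miRBase and the bovine genome with BWA, and the remaining reads were searched against human, mouse and rat miRNAs. The submitters' processing notes name a human genome build, so no coordinates are given. mRNA reads came from an Ion Proton sequencer. The 4 small RNA libraries were fitted in edgeR 4.0.16 (R 4.3.3) with filterByExpr, TMM factors, glmQLFit and glmQLFTest, with Benjamini-Hochberg adjustment over 1073 sequences. EBSeq, the tool of the study, was not used here. Alternatives were total counts, other size factors, DESeq2 1.42.0, limma-voom (limma 3.58.1), no filter, known miRNAs alone, the replicate number as a block, and each library left out. Calls were also counted without the fold change threshold. The within-library ratios were also taken with the human, mouse and rat rows of a member's name added. For mRNA, 2-fold counts used a prior of 0.5 counts, and intervals came from scipy 1.17.1. Sequences were copied from the study's supplementary list of known miRNAs. The families, lists and rule for naming genes (all members, cluster and Hox locus miRNAs, the 5 nearest patterns, list genes past 2-fold with 10 or more counts, the 3 most abundant of each list, ELOVL6, KLF13, IGF1R and MTOR) were chosen with earlier results of these data known. Target and cell type lists were written from general knowledge. The values of some target genes are not reported here, and those genes are left out of the target list counts.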

Additional observations from a re-analysis of the deposited data

Results flagged for a closer look

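Rows for human, mouse and rat miRNAs that carry a member's name lie outside the comparisons above. There are 10 such rows, with 169 counts in all libraries together. The mouse row miR-99a-3p had 17 and 72 counts in the steers libraries against 0 and 2 in the bulls libraries, above the 3 counts that a count of 0 allows in the steers libraries alone. The human row miR-100-5p, which has the same letters as bovine miR-100, had 16 and 12 counts in the steers libraries against 18 and 14 in the bulls libraries. Both are small beside the bovine rows of these names, and they were not added to them in the values above. In an alternative, the rows of this kind were added before the within-library ratios were taken. The log2 difference of miR-99a-5p to miR-99a-3p, steers minus bulls, was then -0.56 in place of -0.52.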

How the results depend on the processing

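Of 151 values under alternatives, 129 kept their direction and side of the threshold or, for counts and untested values, stayed within 1.5 times or 1 SD. Among them are the within-library ratios without 1 library, whose direction is fixed because the groups do not overlap. The number of members called upregulated fell from 1 to 0 with total counts and without a filter on low counts (8303 sequences tested), where miR-10b had a log2 fold change of 0.92 (SE 0.15) and 1.26 (SE 0.77), and it was 0 to 1 without 1 library. MiR-10b was 0.99 to 1.97 without 1 library and was called only without bulls library 1. The number called downregulated was 0 to 2 without 1 library. With total counts miR-99a-5p was -0.29 and miR-10a was -0.076. Without 1 library, miR-99a-5p was -0.21 to 0.77, miR-99b -0.66 to 0.53 and miR-125a -1.19 to 0.11. The number of target genes past 2-fold higher was 1 in place of 2 with total counts and with a prior of 5 counts, and the number past 2-fold lower was 8 and 4 in place of 6. The cause of these changes was not tested.

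Counts of calls over all sequences moved more. Against 76 upregulated and 76 downregulated, total counts gave 1 and 0, no filter 34 and 36, known miRNAs alone 39 and 36 of 396, and upper-quartile factors 101 and 52. Without 1 library they ran from 20 to 110 and from 6 to 45, where a lone library was assumed to vary like the other group.

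With the replicate number as a block, 1 member was called upregulated and 0 downregulated, and miR-10b had a log2 fold change of 1.39 (adjusted p = 2.8e-06, edgeR), while over all sequences 133 were called upregulated and 119 downregulated. The labels name no shared source for libraries of 1 number. Across 1073 sequences the deviations of both libraries numbered 1 had a correlation of 0.314. With 2 pairs this does not settle whether the numbers mark a shared source, which was not tested.

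Low counts limit the values of miR-208a, miR-144, miR-615 and miR-196a. With 2 pooled libraries a group, the spread between animals was not measured, and the mRNA pools allow no test.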

Other observations

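The mRNA table also holds rows for 8 precursors of the families, which hold 0 counts in the steers pool and 4 in the bulls pool. The cause of these low counts was not tested.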
